A study of Anastrepha ludens with 9 samples.

Results

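The RNA pool of Mexican fruit fly (Anastrepha ludens) embryos at gastrulation was compared with that at cellularization, the stage before it. Gastrulation embryos had been collected 18 to 30 h into development and cellularization embryos 9 to 18 h, with 3 libraries per stage, so that 6 of the 9 libraries of the series entered the comparison. The other 3 libraries came from syncytium embryos of 0 to 9 h and are given only as context. All were whole-embryo RNA libraries from embryos kept in water, with no strain, treatment or sorting given, and the design text of the series calls the triplicates biological. How many embryos or egg collections stand behind a library is not given in the sources used here, so p-values measure the spread between these libraries.

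A fly embryo starts as a syncytium, in which nuclei divide in a shared cytoplasm that the mother has stocked with messenger RNA. In Drosophila, where this is best known, maternal RNA is cleared while the zygote's own genes are switched on in waves, and the large wave comes as membranes enclose the nuclei during cellularization. Gastrulation follows, when the cell sheet folds into germ layers and cells take up different programs. The comparison asks how the make-up of the embryo's RNA changes between these last steps. In whole embryos, fewer cells that express a gene and less RNA per cell cannot be told apart.

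Each stage had been quantified on an assembly of its own, made of contigs (assembled RNA sequences) grouped into assembled genes. Of 53991 contig names that both assemblies use, 116 had the same length, and 0 of the names matched an entry among the 17305 genes that RefSeq lists for this species (assembly idAnaLude1.1). A gene of one stage could therefore not be looked up in the other, and no gene symbol or sequence is paired with any name. The pools were compared by their shape instead: how RNA was spread over genes ranked by abundance, and over genes of different length. Genes whose longest contig had 1000 bases or more, called long genes here, were kept and their TPM (transcripts per 1000000) rescaled to 1000000 in each library. This left 16031 of 75619 assembled genes at gastrulation and 15200 of 76713 at cellularization. In every comparison below the stage and its assembly cannot be told apart.

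Libraries of both stages had been sequenced to a similar depth, with 28099549 to 37731673 estimated counts at gastrulation and 29226591 to 33681067 at cellularization. Long genes held 93.0 to 93.4% of the counts and 70.2 to 71.1% of the deposited TPM at gastrulation, against 91.7 to 93.2% and 66.5 to 71.4% at cellularization. The 95% Wilson intervals of the count shares were at most 0.0187 percentage points wide and cover counting error only. The fragment length, read from the difference between length and effective length, averaged 144 ± 2.92 bases at gastrulation and 162 ± 2.19 bases at cellularization (SD, n = 3 each). The 2 stages did not overlap in it. Recomputing TPM from the deposited counts with 1 fragment length in all libraries changed no call among the 9 measures below. Read assignment and assemblies stayed as deposited, so the part of the fragment length cannot be told apart from the stage.

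At gastrulation the pool was less dominated by its most abundant genes than at cellularization, and a larger number of long genes reached 10 rescaled TPM. Long genes at 10 rescaled TPM or more numbered 8809, 9316 and 9185 in the gastrulation libraries, against 8018, 8029 and 8303 in the cellularization libraries. Every gastrulation library lay above every cellularization library, and the means were 9103 ± 263 and 8117 ± 161 genes, 12.2% more at gastrulation (SD, n = 3 each; exact permutation p = 0.1, two-sided). As a percentage of the long genes listed, the means were 56.8% at gastrulation and 53.4% at cellularization. At 5, 50 and 100 rescaled TPM such percentages overlapped between the stages. With 3 against 3 libraries an exact permutation test cannot go below 0.1, so no comparison here can pass 0.05. A difference is called where the libraries of the stages do not overlap. Of 9 measures compared, 7 were without overlap, and after Benjamini-Hochberg adjustment over the 9 the lowest exact p was 0.129 and the highest 0.2. A further 91 measures of the same profiles, many of them dependent on each other, were compared as well, of which 56 were without overlap (lowest adjusted exact p 0.163).

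The 10 most abundant long genes held 18.4%, 16.5% and 17.6% of the rescaled TPM in the gastrulation libraries, against 20.8%, 22.5% and 18.8% in the cellularization libraries. Cellularization replicate 3 came closest to gastrulation. The stage means were 17.5% ± 0.909 at gastrulation and 20.7% ± 1.86 at cellularization, a difference of -3.21 percentage points without overlap (SD, n = 3 each; exact p = 0.1). The stages overlapped in this share at a length minimum of 2000 bases (-4.93 points) and with no minimum (-2.17 points), and once those 10 genes were left out the next 10 differed by 0.249 points, with overlap. Among the 1000 most abundant genes the share was 63.7% ± 1.31 at gastrulation and 68.2% ± 2.00 at cellularization, also without overlap (exact p = 0.1, n = 3 each). The top 100 genes together held 37.9%, 35.5% and 36.1% at gastrulation, against 39.4%, 42.8% and 36.7% at cellularization. Here the stages overlapped, because gastrulation replicate 1 exceeded cellularization replicate 3 (exact permutation p = 0.2). The difference of -3.12 percentage points was -1.54 without cellularization replicate 2, and 4 of the 6 settings that leave out 1 library still overlapped. The other 2 leave out one of the libraries that overlapped (-3.83 without gastrulation replicate 1 and -4.58 without cellularization replicate 3), so their separation adds nothing.

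The number of genes needed to hold a given part of the pool told the same difference from the other side. At gastrulation 1926, 2203 and 2126 genes held 75% of the rescaled TPM, against 1566, 1427 and 1745 genes at cellularization. The effective number of genes, which is the number of equally abundant genes that would give the same Shannon entropy, was 2032 ± 161 at gastrulation and 1542 ± 234 at cellularization, a ratio of 1.32 (SD, n = 3 each; exact permutation p = 0.1). All 3 gastrulation libraries lay above all 3 cellularization libraries in both measures. For 50% of the pool, 301, 378 and 358 genes sufficed at gastrulation, against 254, 194 and 314 at cellularization. These overlapped between gastrulation replicate 1 and cellularization replicate 3 (exact permutation p = 0.2). The difference in means of 91.7 genes was 61.7 without cellularization replicate 2 and 75.5 without gastrulation replicate 2, both with overlap. Among the settings that leave out 1 library, it separated only on leaving out either of the overlapping libraries (114 without gastrulation replicate 1 and 122 without cellularization replicate 3).

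**Figure D1:**
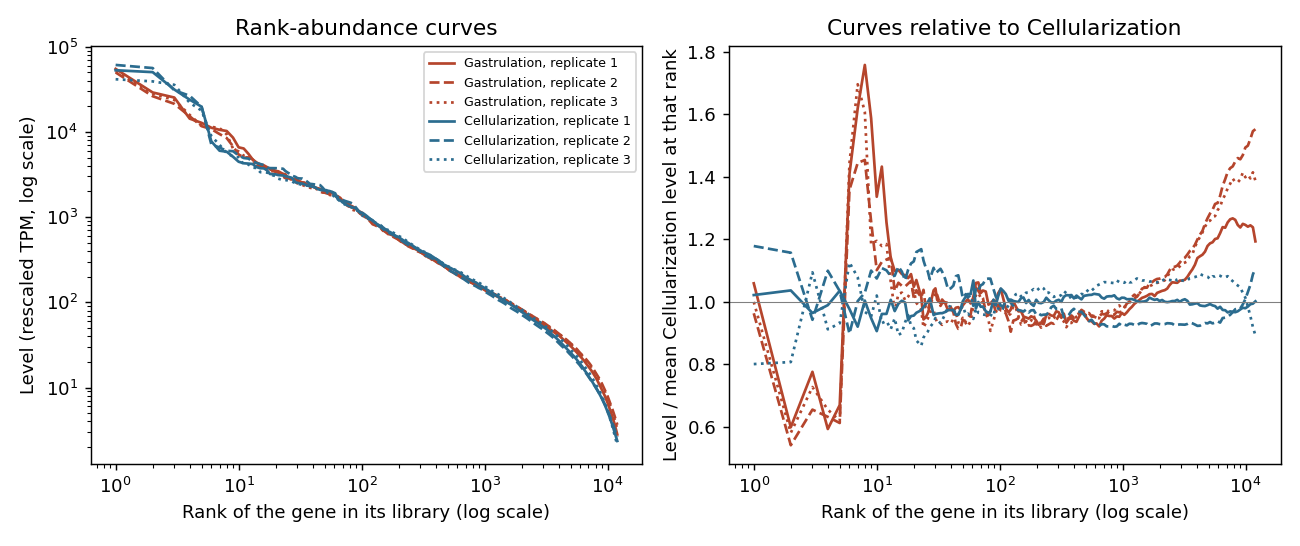
Left, level of each long gene in rescaled TPM against its rank in its library, both on log scales, for 3 gastrulation and 3 cellularization libraries (1 line each, drawn at selected ranks up to 12000). Right, the same levels divided by the mean of the cellularization libraries at that rank on a linear axis. The gastrulation lines run below 1 at ranks 2 to 5 and separate upward from the cellularization lines from rank 3088 on.

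Compared rank by rank, the curves crossed several times. The level at rank 1 overlapped, with 49911 to 54884 TPM at gastrulation and 41486 to 61071 TPM at cellularization. At ranks 2 to 5 every gastrulation library lay below every cellularization library, and at ranks 6 to 10 every gastrulation library lay above. At rank 2 the level was 29042, 26237 and 28171 TPM at gastrulation, against 50294, 56155 and 39165 TPM at cellularization. At rank 10 it was 6591, 5432 and 5894 TPM at gastrulation, against 4469, 5300 and 5031 TPM at cellularization. The cellularization pool thus had a step after its first 5 genes: levels at rank 5 were 17771 to 19760 TPM and at rank 6 7131 to 8941 TPM, while at gastrulation they were 11679 to 12774 TPM at rank 5 and 10791 to 11464 TPM at rank 6.

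Below the top, the stages first came together and then parted. At rank 100 the level was 1068 to 1139 TPM at gastrulation and 1048 to 1135 TPM at cellularization, which overlapped (exact permutation p = 1). Between ranks 101 and 1000 gastrulation was slightly lower, with a geometric mean ratio of 0.954 to cellularization and all libraries below at 319 of 900 ranks. From rank 3088 down to rank 12000, the last rank compared, all gastrulation libraries lay above all cellularization libraries at every rank. The ratio of stage means averaged 1.17 over ranks 3001 to 5000, 1.31 over ranks 5001 to 8000 and 1.39 over ranks 10001 to 12000. The lists hold 16031 long genes at gastrulation and 15200 at cellularization, so the same rank takes in a smaller part of the gastrulation list. Set against the lists, the percentages of genes at 1 and at 5 rescaled TPM overlapped, as given below.

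The 8000th gene had 13.2, 15.0 and 14.5 TPM at gastrulation, against 10.1, 10.1 and 11.1 TPM at cellularization. Gastrulation replicate 1 was the lowest of its stage and still above cellularization replicate 3. TPM sum to a fixed total, so a larger share in the top genes lowers the rest. The level at rank 8000 as a percentage of that at rank 1000 does not depend on that total, and it was 10.1% ± 0.588 at gastrulation and 7.17% ± 0.301 at cellularization, a ratio of 1.41 without overlap (SD, n = 3 each; exact permutation p = 0.1). When the 100 most abundant genes were left out and the rest rescaled, 10065, 10485 and 10311 genes reached 10 TPM at gastrulation, against 9498, 9702 and 9480 at cellularization. These also did not overlap. Neither the levels by rank nor these counts allow for the longer gastrulation list, of 16031 long genes against 15200 at cellularization. Set against those lists, the counts without the 100 most abundant genes overlapped between the stages. Genes at 10 to 20 rescaled TPM rested on a median of 417 to 564 estimated counts at gastrulation and 408 to 476 at cellularization.

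The gastrulation assembly lists more long genes than the cellularization assembly, so the counts over all long genes were also set against those lists. Of the long genes each assembly lists, 54.9%, 58.1% and 57.3% reached 10 rescaled TPM at gastrulation, against 52.8%, 52.8% and 54.6% at cellularization. The stages still did not overlap, with means of 56.8% ± 1.64 and 53.4% ± 1.06 (SD, n = 3 each; exact permutation p = 0.1), but the gap between gastrulation replicate 1 and cellularization replicate 3 was narrow. Of the 7 levels compared in this way, 10 TPM was the only one at which gastrulation was higher without overlap. At 1 rescaled TPM the percentages overlapped, from 89.1 to 93.4% at gastrulation and from 88.3 to 94.0% at cellularization. They also overlapped at 5 TPM (67.0 to 70.0% at gastrulation and 66.5 to 67.1% at cellularization), at 50 TPM (20.4 to 21.8% at gastrulation and 18.8 to 21.4% at cellularization) and at 100 TPM (9.67 to 10.02% at gastrulation and 9.25 to 10.6% at cellularization). At 500 TPM the order was reversed, with 1.34 to 1.37% at gastrulation and 1.49 to 1.61% at cellularization, and at 1000 TPM it was 0.667 to 0.674% at gastrulation and 0.704 to 0.743% at cellularization, both without overlap (exact permutation p = 0.1, n = 3 each).

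**Figure D2:**
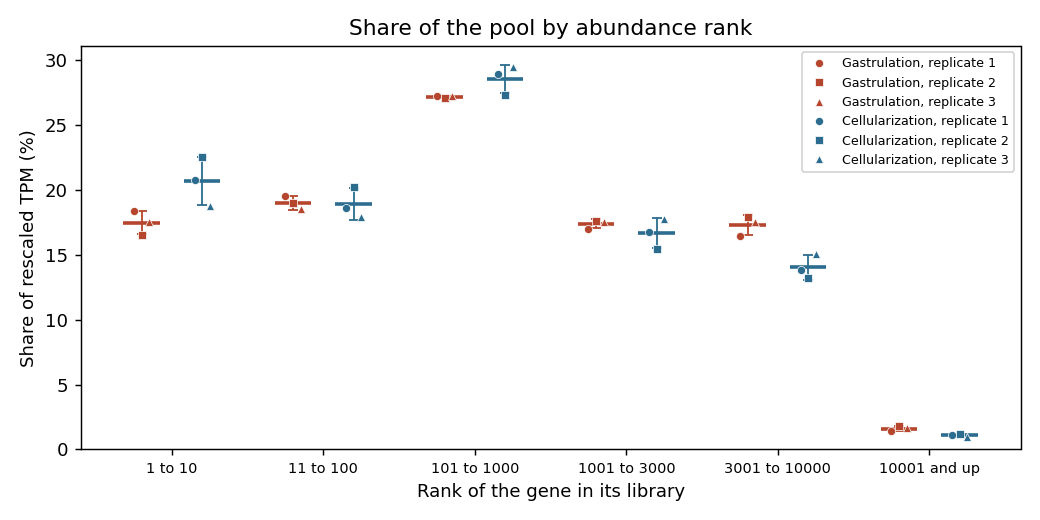
Share of rescaled TPM in percent held by long genes of 6 classes of rank, with 1 point per library, the mean as a thick bar and the SD as an error bar (n = 3 per stage). Gastrulation lies below cellularization for the first 10 genes and for ranks 101 to 1000 and above it beyond rank 3000, and the stages overlap at ranks 11 to 100 and 1001 to 3000.

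By classes of rank, gastrulation held less of the pool in ranks 1 to 10 and 101 to 1000 and more beyond rank 3000. Genes of ranks 3001 to 10000 held 16.4%, 17.9% and 17.6% of the pool at gastrulation, against 13.8%, 13.2% and 15.1% at cellularization. The libraries did not overlap, and the difference was 3.26 percentage points (exact permutation p = 0.1, n = 3 each). Genes of ranks 101 to 1000 held 27.2%, 27.1% and 27.2% at gastrulation, against 28.9%, 27.3% and 29.4% at cellularization, a difference of -1.38 percentage points, also without overlap. Genes of ranks 11 to 100 held 19.0% ± 0.536 at gastrulation and 18.9% ± 1.21 at cellularization (SD, n = 3 each), which overlapped (exact permutation p = 1). Genes beyond rank 10000 held 1.41 to 1.80% at gastrulation and 0.996 to 1.22% at cellularization, without overlap. This class runs to the end of the list, at 16031 genes for gastrulation and 15200 for cellularization. It therefore has more members at gastrulation.

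The genes at the head of each pool were taken by a rule, the 5 with the highest mean level in each stage. At gastrulation these were the same 5 in the same order in all 3 libraries. TRINITY_DN123_c0_g2 led with 54884, 49911 and 51803 TPM. TRINITY_DN145_c3_g1 had 29042, 26237 and 28171 TPM, on a single contig of 2779 bases. TRINITY_DN1858_c0_g2 had 25316, 21366 and 23725 TPM. After these 3 the levels dropped: TRINITY_DN123_c0_g1 averaged 15133 ± 759 TPM and TRINITY_DN3189_c0_g3 12089 ± 597 TPM (SD, n = 3 each). TRINITY_DN123_c0_g1 and TRINITY_DN123_c0_g2 belong to 1 component of the assembly, so reads could be split between them.

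At cellularization the leading 5 were the same genes in all libraries but not in the same order. TRINITY_DN11_c0_g1 had 50294, 61071 and 41486 TPM and TRINITY_DN42_c0_g1 had 52938, 56155 and 39165 TPM. Replicate 2 was highest and replicate 3 lowest for both. TRINITY_DN645_c1_g1 went the other way, with 31458, 26565 and 35711 TPM. TRINITY_DN245_c0_g1 averaged 25563 ± 4592 TPM and TRINITY_DN61_c0_g1 19090 ± 1142 TPM (SD, n = 3 each). Together the 5 leading genes held 13.6%, 12.4% and 13.1% of the pool at gastrulation, against 17.8%, 19.4% and 15.6% at cellularization. Since the genes cannot be matched between assemblies, none of them is described as higher or lower in either stage.

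**Figure D3:**
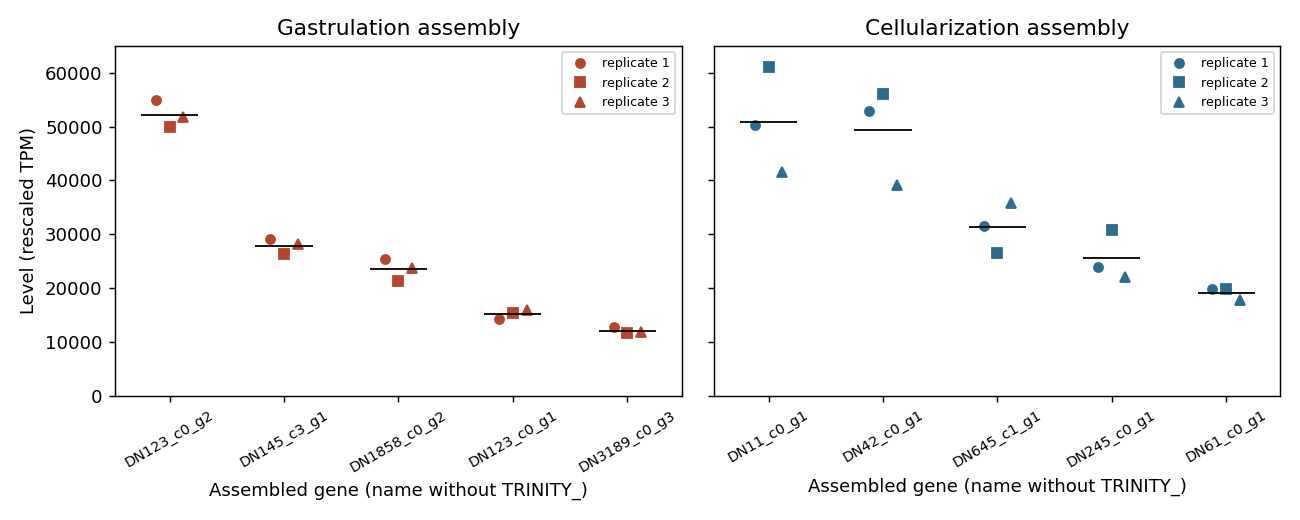
Level in rescaled TPM of the 5 most abundant long genes of the gastrulation assembly (left) and of the cellularization assembly (right), with 1 point per library and the mean as a line. At gastrulation the second gene averages 27817 TPM, while the first 2 genes of cellularization average 50950 and 49419 TPM, and the cellularization replicates lie farther apart.

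Agreement between the libraries of a stage was closer at gastrulation than at cellularization by most, but not all, of the values computed. Among long genes with a mean of 10 rescaled TPM or more, the coefficient of variation between the 3 libraries had a median of 9.81% over 9154 genes at gastrulation and of 14.2% over 8163 genes at cellularization. The 100 most abundant genes had 95 in common to all 3 libraries at gastrulation and 87 at cellularization, while the 10 most abundant had 8 in common at gastrulation and 9 at cellularization. Of genes at 10 TPM or more in any library, 86.2% were so in all 3 at gastrulation and 82.0% at cellularization. Spearman coefficients across genes between libraries were 0.960 to 0.972 at gastrulation and 0.939 to 0.964 at cellularization, the lowest being between cellularization replicates 2 and 3. Between libraries, the median absolute log2 ratio of those genes was 0.14 to 0.21 at gastrulation and 0.21 to 0.34 at cellularization. With 1 such value, or 3 dependent pairs, per stage these differences were not tested.

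The length of the genes that carried the RNA depended on which contig stands for a gene. By its longest contig, the gene at the middle of the pool, with as much rescaled TPM in shorter as in longer genes, had 2432, 2473 and 2490 bases at gastrulation, against 2703, 2688 and 2647 bases at cellularization. Genes with a longest contig of 3000 bases or more held 33.3%, 35.0% and 35.1% at gastrulation, against 43.5%, 43.5% and 42.2% at cellularization, and those of 1000 to under 1500 bases held 22.5%, 22.0% and 21.8% at gastrulation, against 18.8%, 19.6% and 19.1% at cellularization. In all 3 measures the stages did not overlap (exact permutation p = 0.1, n = 3 each). The class of 3000 to under 5000 bases accounted for most of it, with 18.3% ± 0.417 at gastrulation and 26.1% ± 0.728 at cellularization (SD, n = 3 each). The class of 2000 to under 3000 bases went the other way, at 27.0% ± 0.419 at gastrulation and 21.6% ± 0.757 at cellularization.

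These length differences did not hold when each gene was given the length of its leading contig, the contig with the most TPM in that library. In many leading genes the longest contig was not the one that carried the level. TRINITY_DN42_c0_g1, with a longest contig of 4416 bases, had 93.2% of its TPM on a contig of 2011 bases. TRINITY_DN645_c1_g1, with 3696 bases, had 95.4% on 1 of 2553 bases. Those cellularization genes made up 4.94% and 3.12% of the pool and fall in the class of 3000 to under 5000 bases only by their longest contig. TRINITY_DN245_c0_g1, with 9075 bases, had 99.9% on a contig of 617 bases. At gastrulation TRINITY_DN123_c0_g2, with 5331 bases, had 93.6% on a contig of 658 bases.

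By the leading contig, the length at the middle of the pool was 1788, 1824 and 1841 bases at gastrulation, against 1828, 1727 and 1857 bases at cellularization, and the stages overlapped (exact permutation p = 0.9). Genes with a leading contig of 3000 bases or more held 20.3% ± 1.22 at gastrulation and 18.6% ± 1.05 at cellularization (SD, n = 3 each), now the higher at gastrulation and with overlap (exact permutation p = 0.2). Within it, the class of 3000 to under 5000 bases held 15.4% ± 0.575 at gastrulation and 13.6% ± 0.721 at cellularization, without overlap. The class of 2000 to under 3000 bases held 24.6% ± 0.154 at gastrulation and 26.8% ± 0.759 at cellularization, also without overlap. Both differences were opposite in direction to those by the longest contig. Long genes led by a contig under 1000 bases held 17.1% ± 0.174 at gastrulation and 16.05% ± 1.76 at cellularization, with overlap. Among the 1000 most abundant genes they numbered 84, 83 and 87 at gastrulation, against 57, 60 and 59 at cellularization, without overlap. This way of assigning length was chosen after the values of the leading genes were seen.

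**Figure D4:**
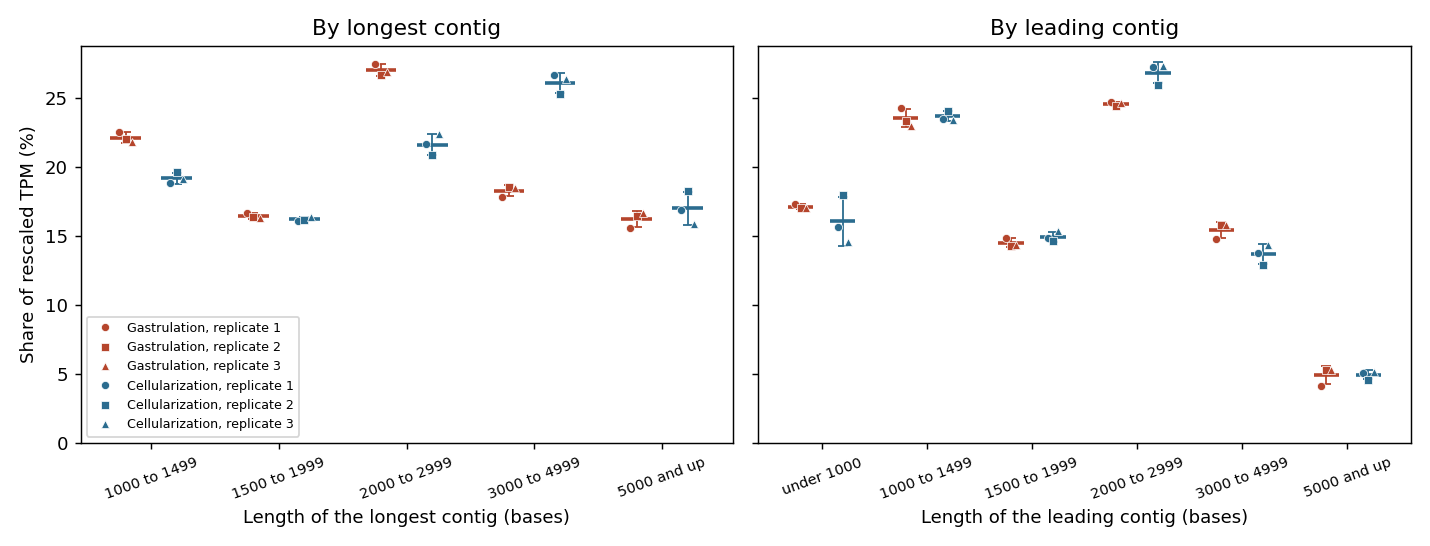
Share of rescaled TPM in percent by length class in bases, with a gene's length taken from its longest contig (left) or from its leading contig, the one with the most TPM (right), with 1 point per library, the mean as a thick bar and the SD as an error bar (n = 3 per stage). At 3000 to under 5000 bases gastrulation lies below cellularization on the left and above it on the right.

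Within classes of the longest contig, the typical gene was more abundant at gastrulation in the middle of the length range. Neither these medians nor the percentages that follow were computed by the leading contig. Genes of 3000 to under 5000 bases had a median level of 20.9, 23.6 and 22.7 TPM at gastrulation, against 17.9, 17.0 and 19.6 TPM at cellularization. In the class of 2000 to under 3000 bases the medians were 17.7, 19.3 and 18.6 TPM at gastrulation and 14.6, 14.2 and 16.7 TPM at cellularization, again without overlap. The class of 1500 to under 2000 bases did not overlap either (10.6 to 11.2 TPM at gastrulation and 9.22 to 10.1 TPM at cellularization). At both ends of the range the stages overlapped. Genes of 1000 to under 1500 bases had medians of 3.23 to 3.86 TPM at gastrulation and 3.21 to 3.80 TPM at cellularization (exact permutation p = 0.8), and genes of 5000 bases or more had 18.4 to 23.0 TPM at gastrulation and 19.4 to 21.6 TPM at cellularization (exact permutation p = 0.7).

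The percentage of listed genes that reached 10 rescaled TPM showed a similar pattern. It was 71.7% ± 2.25 at gastrulation and 66.1% ± 1.40 at cellularization for genes of 3000 to under 5000 bases (SD, n = 3 each), and 33.8% ± 0.765 at gastrulation and 31.8% ± 0.629 at cellularization for genes of 1000 to under 1500 bases, both without overlap. For genes of 5000 bases or more it was 68.6%, 77.7% and 76.7% at gastrulation, against 71.4%, 72.0% and 73.9% at cellularization. There gastrulation replicate 1 lay below all cellularization libraries and the other 2 above (exact permutation p = 0.5). Across genes within a library, level went weakly with length at both stages, with Spearman coefficients of 0.282 to 0.318 at gastrulation and 0.301 to 0.310 at cellularization over 16031 and 15200 genes. The genes of a library share its depth and assembly, so these are descriptions only.

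**Figure D5:**
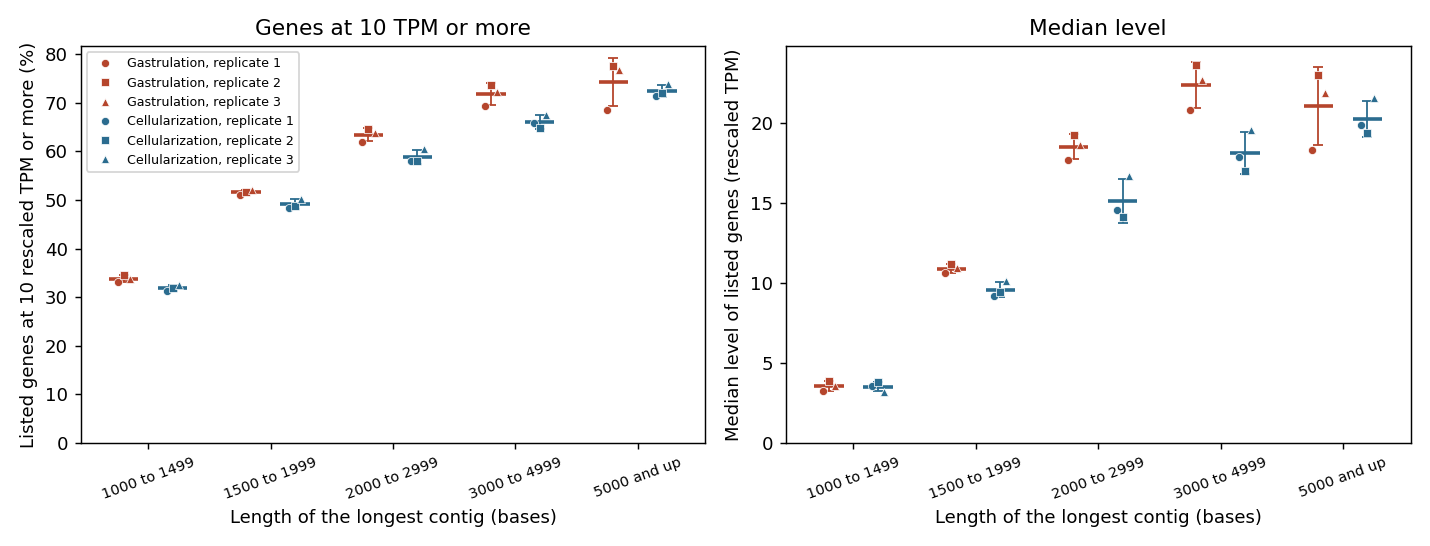
Percentage of the listed long genes that reach 10 rescaled TPM (left) and median level of the listed genes in rescaled TPM (right), by length of the longest contig in bases, with 1 point per library, the mean as a thick bar and the SD as an error bar (n = 3 per stage). Gastrulation lies above cellularization without overlap from 1500 to under 5000 bases in both panels, while at 5000 bases and up gastrulation replicate 1 is the lowest point.

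Set beside the syncytium, treated the same way on its own assembly of 14243 long genes, both later pools were more concentrated at the top. The 10 most abundant genes held 13.7% ± 0.271 of the pool in syncytium libraries, 20.7% ± 1.86 in cellularization libraries and 17.5% ± 0.909 in gastrulation libraries (SD, n = 3 each), without overlap between any stages (exact permutation p = 0.1 for gastrulation against the syncytium and for cellularization against the syncytium). The effective number of genes averaged 2649 ± 60.3, 1542 ± 234 and 2032 ± 161 in the same order of stages, also without overlap. Long genes led by a contig under 1000 bases held 6.01% of the syncytium pool, which overlapped with neither cellularization (16.05%) nor gastrulation (17.1%). Without such genes the top 10 share was 13.8% ± 0.861 at gastrulation and 16.3% ± 0.949 at cellularization (SD, n = 3 each). The syncytium was not recomputed under this or any other setting. Farther down, which stages overlapped depended on the rank. The level at rank 8000 as a percentage of that at rank 1000 was 9.54% ± 0.0972 in syncytium, 7.17% ± 0.301 in cellularization and 10.1% ± 0.588 in gastrulation libraries (SD, n = 3 each), and the libraries of gastrulation and the syncytium overlapped (exact permutation p = 0.3). At rank 12000 the level was 2.33 to 2.35 TPM in syncytium, 2.10 to 2.61 TPM in cellularization and 2.81 to 3.66 TPM in gastrulation libraries, and there the syncytium overlapped with cellularization and not with gastrulation. Rank 12000 lies deeper in the shorter lists, of 14243 syncytium and 15200 cellularization genes, than in that of 16031 gastrulation genes. Neither these levels nor the curve differences below allow for that. Genes at 10 rescaled TPM or more numbered 9225 to 9272 in the syncytium, within the range of the gastrulation libraries, but as a percentage of the long genes listed they were 64.9% ± 0.189 in syncytium, 53.4% ± 1.06 in cellularization and 56.8% ± 1.64 in gastrulation libraries (SD, n = 3 each), without overlap between any stages. Rank-abundance curves were also compared by their mean absolute log2 difference over 12000 ranks. It averaged 0.31 between gastrulation and cellularization libraries, 0.39 between cellularization and syncytium and 0.18 between gastrulation and syncytium. Among gastrulation libraries it averaged 0.10 and among cellularization libraries 0.12. Single pairs ranged from 0.185 to 0.414 for gastrulation with cellularization and from 0.148 to 0.223 for gastrulation with syncytium, so these overlapped. Gastrulation replicate 1 was nearer to cellularization replicate 3 (0.185) than to any syncytium library (0.196 to 0.223).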

How the data were processed

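RNA had been prepared with TRI Reagent and Illumina libraries made from it, per the labels' protocols. The submitters' processing notes name kallisto 0.44.4, FastQC 0.11.7 and MultiQC 1.5, and the columns per the file headers are those kallisto writes. Estimated counts are raw in the deposited tables, where those of 1000000 or more carry 3 digits. The deposited TPM are divided by the effective length and sum to 1000000 over all contigs of a library. The deposited lengths are in bases. Contig names have the form that Trinity writes. For the assembly settings and the library kit, no source used here gives details.

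Contigs were summed per gene (the name without its _i part), genes with a longest contig of 1000 bases or more were kept, and TPM were rescaled (Python 3.11.15, pandas 2.3.3, numpy 2.4.6). One value per library entered two-sided exact permutation tests of the difference of means over all 20 splits, with Benjamini-Hochberg adjustment. No test was run across genes between stages, since the assemblies differ. The scripts' measures were tested on simulated data. Named genes were the 5 with the highest mean rescaled TPM per stage. Measures, rules and lists were chosen with earlier results of these data known. No cell type marker list could be used without gene symbols.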

Additional observations from a re-analysis of the deposited data

How the results depend on the processing

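Of the 9 measures, the larger count of genes at 10 TPM and the lower share of the 1000 most abundant genes at gastrulation kept their direction without overlap under every alternative tried. Genes at 10 TPM were recomputed only as counts, and the long genes listed are more at gastrulation. Set against those lists, the counts without the top 10 genes overlapped, with 9417 of 16031 in gastrulation replicate 1 and 8938 of 15200 in cellularization replicate 3. For the other settings such percentages were not computed. Thinning to 26192561 counts, 1 fragment length of 150 bases, the 12000 most abundant genes and genes at 1 TPM or more changed no call. The fragment length and the settings on the leading contig were added after seeing the data. Differences below are gastrulation minus cellularization, shares in percentage points. The share of the top 10 genes (-3.21) overlapped at a length minimum of 2000 bases (-4.93) and with none (-2.17), and for the next 10 after removing the top 10 it was 0.249. That of the top 100 (-3.12, overlapping) separated with counts (-5.70), a minimum of 500 bases (-4.16), components (-4.69) and single contigs (-3.83). Genes holding 50% (91.7, overlapping) separated with counts (230), minima of 500 (107) and 2000 bases (102), components (84.3), single contigs (236), without the top 10 (126) and without genes led by contigs under 1000 bases (155). The effective number (490) overlapped with no minimum (410). The weighted median length (-214 bases) overlapped with no minimum (-36.3) and without the top 10 (-88.7), and was 84 with single contigs, 13.7 by leading contig and 130 without genes led by contigs under 1000 bases, the first and last reversed without overlap. The share at 1000 to under 1500 bases (2.93) was 0.403 without the top 10, -0.145 by leading contig and 0.174 without genes led by short contigs, all overlapping. The share at 3000 bases or more (-8.58) was -1.87 without the top 10, without overlap, 0.501 with single contigs and 1.76 by leading contig, both overlapping, and 2.41 without genes led by short contigs, reversed without overlap. The cause was not tested beyond these settings. Leaving out 1 library gave -4.16 to -2.29 for the top 10, -4.58 to -1.54 for the top 100, -5.52 to -3.53 for the top 1000, 61.7 to 122 for genes holding 50%, 377 to 611 for the effective number, 880 to 1134 for genes at 10 TPM, -231 to -198 bases for length, 2.71 to 3.14 and -9.00 to -8.01 for the length classes. Same-numbered replicates shared only a number: their deviations from the stage curves correlated by 0.519, 0.841 and 0.0773 over ranks, and gastrulation replicate 1 correlated more with cellularization replicate 3 (0.614) than with its own number. With the replicate block all 3 pairs went the way of the mean in all 9 measures (exact sign-flip p = 0.25, the smallest possible), for example 987 more genes at 10 TPM. Where the stages did not overlap, any pairing must go that way, so the block adds nothing there. Stage and assembly stay inseparable at any depth.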

Other observations

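Genes without a contig of 1000 bases, which the profiles above leave out, numbered 59588 at gastrulation and 61513 at cellularization. They held 28.9%, 29.8% and 28.9% of the deposited TPM at gastrulation, against 30.9%, 33.5% and 28.6% at cellularization, with overlap (exact permutation p = 0.4). A small number of them carried much of it: 39, 36 and 37 such genes at gastrulation and 35, 40 and 37 at cellularization reached 1000 TPM, and together they held 15.0% ± 0.426 and 15.6% ± 1.60 of the TPM (SD, n = 3 each; exact permutation p = 0.8). Long genes with a single contig held 24.1%, 24.1% and 23.9% of the rescaled TPM at gastrulation, against 21.7%, 21.3% and 22.5% at cellularization, without overlap, which was not tested apart from the assembly.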
